A study of Rattus norvegicus with 44 samples.

Results

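The genes described here code for the receptors through which cells receive interleukins, chemokines and ligands of the tumour necrosis factor (TNF) family. They were chosen by gene symbol: Il followed by digits and r, or a symbol starting with Ccr, Cxcr or Tnfrsf. Of the genes that match, 56 of the 10412 on the array are described here, read by 65 probes, and where a gene had several probes (9 genes) the brightest over all arrays stood for it. By symbol there were 31 interleukin receptor genes, 15 chemokine receptor genes and 10 genes of the TNF receptor superfamily. Not all are signalling receptors. Il1rn and Il36rn code for secreted receptor antagonists, Il22ra2 and Tnfrsf11b for soluble decoys, and Il1rapl1 and Il1rapl2 for neuronal relatives of the interleukin-1 co-receptor. Current names replaced 2 older symbols, Il4ra (Il4r) and Cxcr7 (Ackr3).

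Choroid plexus, the vascular tissue that secretes cerebrospinal fluid, and trunk blood were taken from male Sprague-Dawley rats of the NCTR strain, 3 months old. The 44 arrays of 1 colour fell into 11 groups of 4. Rats had been exposed to a hot environment (environmentally-induced hyperthermia, EIH), given neurotoxic doses of amphetamine (AMPH), or given saline. Choroid plexus was taken 3 h and 1 day after EIH or AMPH and 3 h after saline, as 20 pools of 3 rats, and blood 3 h and 1 day after EIH, AMPH or saline, as 24 samples of 1 rat each. The choroid plexus EIH pools of 1 day have titles of controls but source and treatment labels of EIH, and stand here as EIH. A tag on the blood samples names striatum, whereas the protocol describes trunk blood.

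Interleukin-1 signals through Il1r1 together with its co-receptor Il1rap, and is held back by the decoy receptor Il1r2 and by the antagonist that Il1rn encodes. Receptors of the interleukin-2, interleukin-4 and interleukin-21 group share the subunit Il2rg, chemokine receptors couple to inhibitory G proteins and steer leukocytes to tissues, and TNF receptors act through adaptor proteins on NF-kB and cell death. Choroid plexus is one of the routes by which leukocytes enter the brain's fluid spaces, and blood carries the leukocytes on which most of these receptors are known.

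All values are log2 of the deposited intensity, and differences are on the same scale, given with their standard error. A gene counts as called where limma's p, adjusted by Benjamini-Hochberg over all genes, lay under 0.05. The tissues matched their labels: the summed level of 15 choroid plexus epithelium markers was 17.5 to 18.6 on the choroid plexus arrays and 12.3 to 14.1 on the blood arrays, and that of 9 erythroid markers was 11.3 to 14.6 on the choroid plexus arrays and 17.6 to 18.0 on the blood arrays. Single arrays stood apart. Pool 2 of the choroid plexus AMPH 1 day group was the highest of all choroid plexus pools for Il13ra2 (10.83), Il17re (10.37), Il21r (8.20) and Tnfrsf1b (9.29). Pool 4 of the choroid plexus saline group read high for Ccr4 (8.40) and Ccr8 (9.74) and low for Cxcr4 (5.36) and Il1r2 (3.00). Rat 4 of the blood saline 1 day group read low for Ccr7 (6.03) and Il2rb (8.17). By their labels 17 blood rats also gave tissue to a pool. Across 7 pools there are 5 rat numbers that occur more than once. For 3 of them, in 6 pools, the pools belong to different groups, which 1 rat cannot, so that some of these labels must be wrong. One such number is shared by pool 4 of the saline group and pool 2 of the AMPH 1 day group, both named above. Of the 17 blood rats, 2 have a number that also stands in a pool of another exposure or time. Which labels are right is not known, and where a rat is truly shared the arrays are not independent. Blank cells, taken as missing, numbered above 10 of 44 in 8 of the 56 genes, and 21 genes had none.

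The sequences upstream of a transcript start are shown for 3 genes on which the results below turn, because the data bear on their transcript levels: Tnfrsf12a, called in choroid plexus, and Il1rap and Il1rn, called in blood. RefSeq's table (build GRCr8) held an upstream sequence for 38 of the 56 genes. Each line gives the 250 bases before the transcript start in that table, on the gene's strand, and capitals mark matches on either strand to GGGCGG (the GC box), TTCNNNGAA (the core bound by STAT factors) or the NF-kB consensus. TGANTCA, GAANNTTC and AGAACA were searched as well.
Tnfrsf12a: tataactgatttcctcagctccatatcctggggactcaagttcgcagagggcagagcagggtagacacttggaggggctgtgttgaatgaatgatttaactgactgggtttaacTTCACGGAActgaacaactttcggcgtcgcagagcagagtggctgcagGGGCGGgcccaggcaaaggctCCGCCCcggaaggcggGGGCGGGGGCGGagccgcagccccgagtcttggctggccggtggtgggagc
Il1rap: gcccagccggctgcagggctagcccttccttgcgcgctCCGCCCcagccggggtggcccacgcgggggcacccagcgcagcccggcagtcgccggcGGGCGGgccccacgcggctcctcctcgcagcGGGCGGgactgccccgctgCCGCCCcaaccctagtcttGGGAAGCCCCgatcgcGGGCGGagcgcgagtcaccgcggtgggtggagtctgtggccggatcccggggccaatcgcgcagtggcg
Il1rn: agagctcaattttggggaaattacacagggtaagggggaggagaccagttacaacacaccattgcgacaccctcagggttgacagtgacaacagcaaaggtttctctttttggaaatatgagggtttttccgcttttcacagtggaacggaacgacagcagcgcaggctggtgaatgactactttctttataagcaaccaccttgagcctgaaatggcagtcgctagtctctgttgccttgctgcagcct
The Tnfrsf12a stretch (chr10:13213649-13213898, minus strand) held 4 GGGCGG and 1 TTCNNNGAA. The Il1rap stretch (chr11:87704343-87704592, minus strand) held 5 GGGCGG and 1 match to the NF-kB consensus, and the Il1rn stretch (chr3:27520072-27520321, plus strand) held none of the 6 motifs. That Il1rn stretch lies inside the span of the gene (chr3:27509836-27525738). It precedes 1 transcript start and is not the sequence before the whole gene. No match overlapped one to another motif. GGGCGG was present in 32.39% of all 27457 upstream sequences of this length and in 18 of the 38, TTCNNNGAA in 7.52% and in 3 of the 38, and the NF-kB consensus in 3.52% and in 6 of the 38. A match describes these letters and shows neither a binding site nor its use.

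The first comparison set choroid plexus against blood in rats that had received saline. More receptor genes were lower in choroid plexus than were higher there. Of 52 genes tested, 7 were called higher and 26 lower in choroid plexus, against 31.9% of all tested genes called higher and 24.3% called lower. The median difference was -1.36 over the receptor genes and 0.15 over all genes. Among the interleukin receptor genes 5 were higher and 13 lower of 29 tested, among the chemokine receptor genes 1 and 8 of 13, and among the TNF receptor genes 1 and 5 of 10. In bulk tissue, fewer cells of a type and less RNA per cell cannot be told apart.

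The widest gap in favour of choroid plexus was that of Il11ra1, the binding subunit for interleukin-11. It read 11.77, 11.80, 11.67 and 11.72 in choroid plexus and 5.78, 4.66, 3.18 and 6.30 in blood, a difference of 6.76 ± 0.62. The 4 pools lay within a narrow band while the blood samples were scattered near the low end of the scale. Ackr3, an atypical receptor that takes up the chemokine CXCL12 without G protein signalling, read 9.25, 9.30, 9.48 and 8.70 in choroid plexus and 5.33, 4.46 and 3.80 in blood, with 1 blank. Its difference was 4.66 ± 0.38, and no blood value came near a choroid plexus value. Tnfrsf12a, the receptor for the ligand TWEAK, read 8.86, 8.99, 8.79 and 8.60 in choroid plexus and 6.20, 6.54, 6.56 and 3.25 in blood (3.18 ± 0.72, and 2.39 by its other probe). The low blood rat widened that difference, but the groups did not overlap.

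Il13ra2, a decoy for interleukin-13, read 7.40, 7.12, 7.53 and 6.92 in choroid plexus and 3.64, 5.35, 4.46 and 4.53 in blood (2.75 ± 0.35). Il17re, a subunit of the interleukin-17C receptor, read 7.47, 7.24, 7.54 and 7.01 in choroid plexus and 5.16, 6.54, 5.86 and 5.12 in blood (1.65 ± 0.33). Neither gene's groups overlapped. The interleukin-1 pathway was split. The signalling receptor Il1r1 read 6.20, 6.24, 5.96 and 5.75 in choroid plexus and 3.17, 4.30, 4.46 and 3.25 in blood (2.25 ± 0.33, but 0.60 by its dimmer probe). Its co-receptor Il1rap was higher in choroid plexus by 1.10 ± 0.22 (9.43, 9.39, 9.35 and 9.15, against 7.62, 8.42, 8.56 and 8.31 in blood). Both restraining genes went the other way. The decoy Il1r2 read 5.72, 5.01, 4.76 and 3.00 in choroid plexus and 10.10, 11.47, 11.56 and 10.53 in blood (-6.30 ± 0.61). The antagonist gene Il1rn read 6.87, 6.81, 6.93 and 5.73 in choroid plexus and 11.36, 11.72, 12.24 and 11.82 in blood (-5.20 ± 0.32, and -1.34 by its dimmer probe). By the brightest probes the 4 genes thus lay on opposite sides with no overlap between tissues, whereas the dimmer probes of Il1r1 and Il1rn overlapped.

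**Figure D1:**
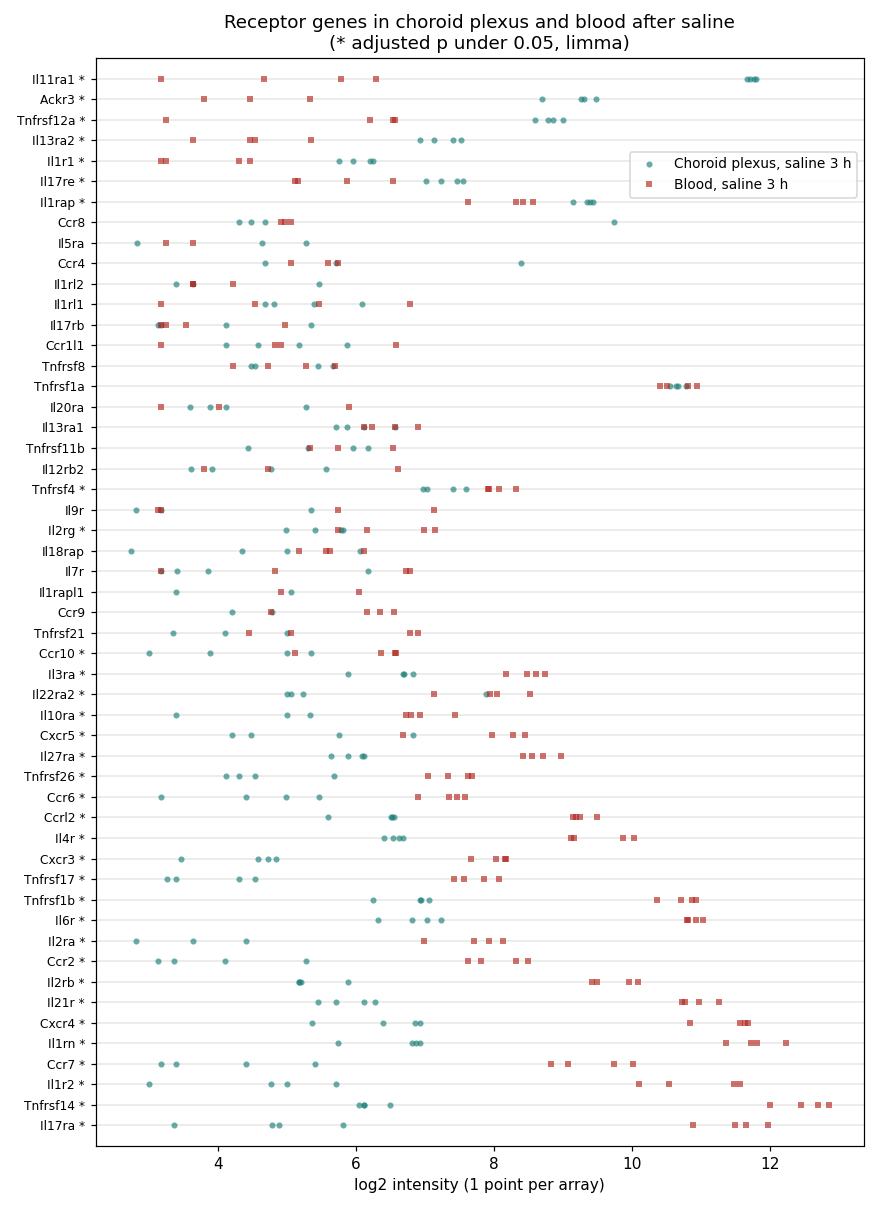
Log2 intensity (horizontal axis) of each receptor gene tested (rows) on the 4 choroid plexus arrays (circles) and the 4 blood arrays (squares) after saline, ordered by the difference, with an asterisk for called genes. Il11ra1 at the top lies at 11.67 to 11.80 in choroid plexus and 3.18 to 6.30 in blood, and Il17ra at the bottom is reversed.

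The receptor genes lower in choroid plexus were led by Il17ra, the shared subunit for interleukin-17 ligands. It read 4.78, 4.89, 5.81 and 3.36 in choroid plexus and 10.89, 11.49, 11.66 and 11.98 in blood (-6.80 ± 0.50, and -2.87 by its dimmer probe). Tnfrsf14, the receptor for LIGHT and BTLA, read 6.49, 6.12, 6.12 and 6.04 in choroid plexus and 12.85, 12.69, 12.45 and 12.01 in blood (-6.31 ± 0.21). Ccr7, which guides lymphocytes and dendritic cells to lymph nodes, read 3.39, 5.41, 3.18 and 4.40 in choroid plexus and 10.02, 9.74, 9.08 and 8.83 in blood (-5.32 ± 0.52). All 3 were separated by wide gaps. Cxcr4, the signalling receptor for CXCL12, was lower by 5.05 ± 0.38 (6.85, 6.39, 6.93 and 5.36, against 10.84, 11.68, 11.63 and 11.57 in blood). The 2 CXCL12 receptors thus differed between tissues in opposite directions. 

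Subunits of lymphocyte cytokine receptors followed. Il21r read 6.12, 5.71, 6.27 and 5.44 in choroid plexus and 11.26, 10.76, 10.98 and 10.73 in blood (-5.05 ± 0.22). Il2rb, a signalling chain for interleukin-2 and interleukin-15, read 5.88, 5.21, 5.17 and 5.17 in choroid plexus and 9.49, 10.08, 9.96 and 9.42 in blood (-4.38 ± 0.24). Il2ra, the subunit that gives the interleukin-2 receptor its high affinity, read 2.80, 3.64 and 4.40 with 1 blank in choroid plexus and 6.98, 7.70, 8.13 and 7.92 in blood (-4.07 ± 0.44, and -1.58 by its dimmer probe). None of the 3 overlapped. The monocyte chemokine receptor Ccr2 read 4.10, 3.13, 5.27 and 3.36 in choroid plexus and 7.62, 8.49, 8.32 and 7.82 in blood (-4.10 ± 0.47), also without overlap. Smaller falls without overlap included Il6r (-4.04 ± 0.21), Tnfrsf1b (-3.93 ± 0.22), Tnfrsf17 (-3.86 ± 0.33), which plasma cells carry, Cxcr3 (-3.61 ± 0.32), Il4r (-2.98 ± 0.24) and Il10ra (-2.40 ± 0.48). Il2rg, the shared subunit, read 4.98, 5.79, 5.81 and 5.40 in choroid plexus and 7.15, 6.17, 6.98 and 5.74 in blood, and its groups overlapped at a narrow call (-1.01 ± 0.36, adjusted p = 0.0407). The 19 tested genes without a call had differences from -1.65 (Tnfrsf21, a death receptor) to 0.82 (Ccr8), and 4 genes, Ccr3, Cxcr1, Il1rapl2 and Il36rn, were not tested for lack of values.

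The 2 TNF receptors parted. Tnfrsf1a, the broadly expressed death-domain receptor, read 10.64, 10.79, 10.55 and 10.67 in choroid plexus and 10.50, 10.81, 10.94 and 10.40 in blood, whereas Tnfrsf1b, the leukocyte-rich receptor, read 6.93, 7.06, 6.94 and 6.24 in choroid plexus and 10.72, 10.88, 10.93 and 10.36 in blood. The Tnfrsf1a values interleaved, with a 95% interval of the difference from -0.37 to 0.37. Marker lists moved with these differences: 12 of 14 T cell markers, 6 of 7 B cell markers, 7 of 12 neutrophil markers and 7 of 9 monocyte and macrophage markers were called lower in choroid plexus, and their part in the receptor differences was not tested. Among 78 listed ligand genes 53 were tested, with 7 called higher and 20 lower in choroid plexus, and among 78 listed signalling genes 66 were tested, with 4 higher and 38 lower.

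In choroid plexus 3 h after EIH, Tnfrsf12a was the only receptor gene called of 54 tested, and it rose about 4-fold. It read 11.42, 10.89, 10.17 and 10.74 after EIH and 8.86, 8.99, 8.79 and 8.60 after saline, with no overlap. The difference was 1.996 ± 0.394 (3.99-fold, adjusted p = 0.0372), and its other probe gave 1.79. Over all genes, 0.341% were called, 0.331% higher and 0.00975% lower. The call was narrow: leaving out any 1 saline pool, or EIH pool 1, 2 or 4, gave an adjusted p between 0.0613 and 0.141, and leaving out the pools with a recurring rat gave 0.327, with the difference between 1.79 and 2.21 under every alternative run.

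The interleukin-1 restraining genes were not called after EIH, although Il1r2 had the largest difference of all receptor genes tested. Il1rn read 8.08, 8.28, 7.56 and 8.45 after EIH and 6.87, 6.81, 6.93 and 5.73 after saline (1.51 ± 0.38, adjusted p = 0.108). Il1r2 read 7.13, 7.99, 6.20 and 7.47 after EIH and 5.72, 5.01, 4.76 and 3.00 after saline (2.58 ± 0.68, adjusted p = 0.118). All EIH pools lay above all saline pools for both genes, but the dimmer Il1rn probe gave -1.86. Cxcr4 read 7.37, 7.71, 7.10 and 7.57 after EIH and 6.85, 6.39, 6.93 and 5.36 after saline (1.05 ± 0.27, adjusted p = 0.114). The groups were separate, though the lowest saline pool widened the gap. Both TNF receptors had the same order, with Tnfrsf1a at 11.57, 11.39, 10.86 and 11.31 after EIH and 10.64, 10.79, 10.55 and 10.67 after saline, and an adjusted p of 0.206. Tnfrsf1b read 7.58, 7.99, 7.21 and 7.56 after EIH and 6.93, 7.06, 6.94 and 6.24 after saline (0.79 ± 0.32, adjusted p = 0.302). At an unadjusted p under 0.05 there were 12 receptor genes and 1327 genes in all. On every EIH pool 43 of the 56 receptor genes lay below the array median or were blank, so that most of them were read at the dim end.

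After AMPH at 3 h none of the 55 receptor genes tested was called, against 0.156% of all genes called, 0.136% higher and 0.0195% lower. The 2 exposures share the saline pools, so their differences from saline are not independent. Tnfrsf12a read 11.31, 11.15, 11.04 and 9.16 after AMPH and 8.86, 8.99, 8.79 and 8.60 after saline (1.85 ± 0.39, adjusted p = 0.0600). The first 3 AMPH pools matched the EIH range and the fourth lay just above saline, and without that pool the adjusted p was 0.00141. Il1rn read 8.81, 8.61, 8.18 and 7.39 after AMPH, above all saline pools (1.66 ± 0.38, adjusted p = 0.0748), and its dimmer probe gave -0.89. Il1r2 read 8.06, 7.94, 7.34 and 5.65 after AMPH (2.63 ± 0.68, adjusted p = 0.0944), and its last pool fell inside the saline range. The fourth AMPH pool was thus the lowest of its group for all 3 genes.

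After AMPH 20 of the 55 differences from saline lay below 0, and none was called. Tnfrsf14 and Cxcr5 had the smallest adjusted p among them. Tnfrsf14 read 5.12, 4.68, 4.42 and 4.89 after AMPH and 6.49, 6.12, 6.12 and 6.04 after saline (-1.41 ± 0.34, adjusted p = 0.0832, and -0.54 by its other probe). Cxcr5, which draws B cells into follicles, read 3.16, 2.91 and 3.16 with 1 blank after AMPH and 5.76, 4.48, 4.20 and 6.83 after saline (-2.24 ± 0.50, adjusted p = 0.0834). Neither gene's groups overlapped, and both lie at the dim end of the scale in choroid plexus. Ccr4 and Ccr8 had differences of -1.94 ± 0.77 (adjusted p = 0.259) and -1.54 ± 0.90 (adjusted p = 0.452), and saline pool 4 was the high pool for both, as it was for Cxcr5. At an unadjusted p under 0.05 there were 13 receptor genes and 1536 genes in all. Leaving out pool 2 of the AMPH 1 day group, which enters only the estimate of spread, gave 6 calls, 4 higher and 2 lower: Tnfrsf12a, Il1rn, Il1r2, Tnfrsf14 and Cxcr5 were among them, with adjusted p from 0.0181 to 0.0474. Over all genes the same run raised the calls from 16 to 350, and it was added after seeing the data.

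In the direct comparison of AMPH pools with EIH pools of 3 h, no receptor gene was called of 55 tested (0.00973% of all genes were called). The difference for Tnfrsf12a was -0.14 ± 0.39 with a 95% interval of about -0.97 to 0.69, and the groups overlapped. By unadjusted p Ackr3 came first, at 8.28, 8.50, 8.40 and 9.15 after AMPH and 8.49, 9.44, 9.05 and 9.35 after EIH (-0.50 ± 0.23, not called). These groups overlapped as well. Next in order and not called were Tnfrsf21, at 5.05, 4.68, 3.62 and 3.16 after AMPH and 5.91, 5.49, 4.74 and 5.28 after EIH (-1.23 ± 0.61), Il1rapl1 on 3 values a group (-1.21 ± 0.64) and Cxcr5 (-0.99 ± 0.54). Tnfrsf21 overlapped between the groups.

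The summed neutrophil markers in choroid plexus were 9.71 to 9.91 after EIH at 3 h, 10.06 to 10.45 after AMPH at 3 h and 9.34 to 10.04 after saline, and no marker of the neutrophil, T cell or B cell lists was called against saline. Of the 9 tested monocyte and macrophage markers 1 was called higher after EIH, with summed levels of 12.6 to 13.2 after EIH and 13.1 to 13.3 after saline. The summed T cell markers were 9.23 to 9.71 after EIH, 9.08 to 9.40 after AMPH and 9.58 to 9.82 after saline. The summed NK and cytotoxic markers were 8.96 to 9.38 after EIH, 8.29 to 8.67 after AMPH and 9.36 to 11.8 after saline, so that the AMPH pools lay below all others. The highest of these saline values was that of pool 4, and the saline median was 9.74. Of the 10 NK and cytotoxic markers 1 was above 0 after AMPH against saline and 0 against EIH, with none called. The part of these lists in the receptor values was not tested. No listed ligand or signalling gene was called in choroid plexus at 3 h, out of 58 to 60 ligand genes and 66 signalling genes tested.

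Further interleukin and TNF receptor genes were described in choroid plexus at 3 h without a call. Tnfrsf11b, the decoy for RANKL, read 6.44, 6.93, 6.20 and 6.75 after EIH, 7.02, 6.98, 5.44 and 6.03 after AMPH, and 6.17, 5.31, 5.96 and 4.44 after saline (1.12 ± 0.50 and 0.90 ± 0.50). Only the EIH pools were separate from saline. Il6r, the binding chain for interleukin-6, read 7.25, 8.76, 7.34 and 7.95 after EIH, 7.41, 7.47, 7.51 and 6.82 after AMPH, and 7.24, 7.04, 6.81 and 6.32 after saline (0.97 ± 0.37 and 0.45 ± 0.37), and the lowest EIH pool lay just above the highest saline pool. Il4r read 7.54, 8.05, 6.64 and 7.17 after EIH and 6.68, 6.53, 6.63 and 6.41 after saline, overlapping by 1 EIH pool (0.79 ± 0.24, adjusted p = 0.162). Il1rl1, the interleukin-33 receptor, overlapped saline after EIH (1.23 ± 0.64, but -0.195 by its dimmer probe) and after AMPH (0.98 ± 0.64, and 0.317 by that probe). Il18rap, the interleukin-18 co-receptor, and Il2rg overlapped it as well, with differences of 0.20 ± 0.65 and -0.53 ± 0.42 after EIH. Il7r, the interleukin-7 receptor, had 2 blanks in each exposed group and a reading of 6.17 in saline pool 4, against 3.17 to 3.85 in the other saline pools.

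**Figure D2:**
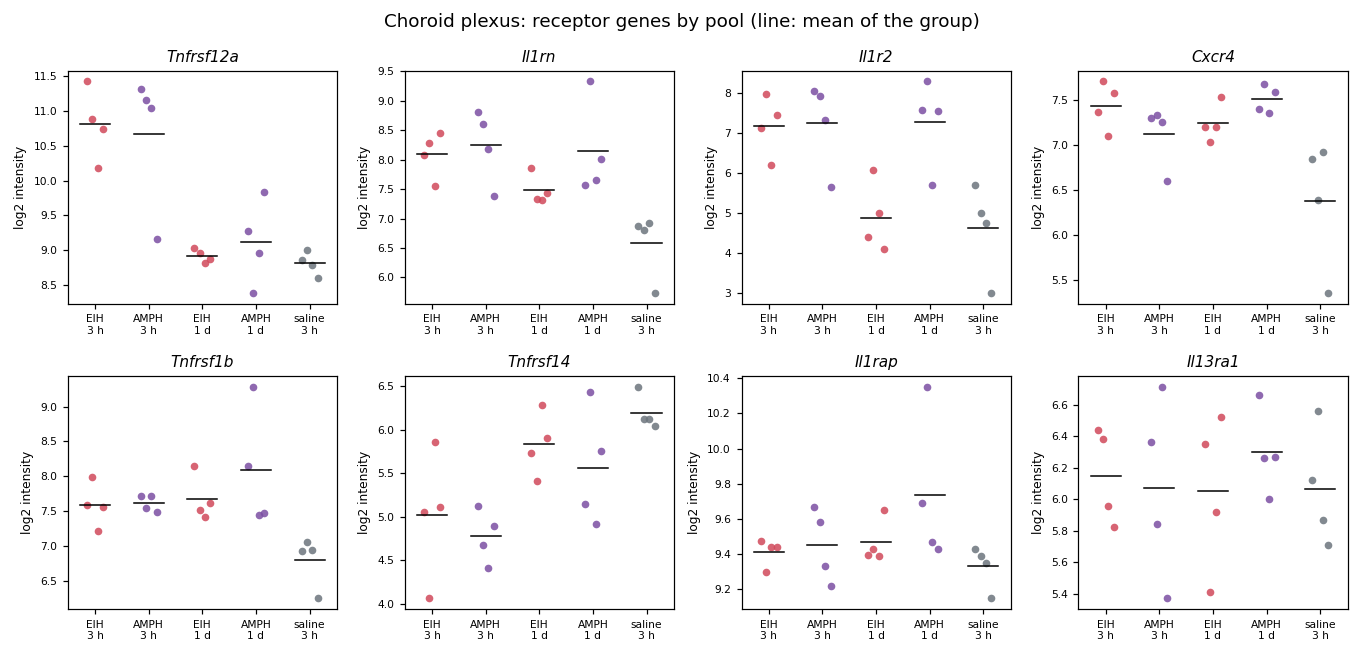
Log2 intensity in each choroid plexus pool (points) with the group mean (line) for 8 receptor genes, by exposure and time. For Tnfrsf12a the EIH pools of 3 h lie at 10.17 to 11.42, the EIH pools of 1 day at 8.82 to 9.04 and the saline pools at 8.60 to 8.99.

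At 1 day no saline choroid plexus was available here, so EIH and AMPH pools of 1 day were compared with saline pools of 3 h. Arrays of 3 h and of 1 day also appear to have been scaled separately, and treatment, time and scaling cannot be told apart in these differences. The median over all genes was itself 0.17 for EIH and 0.11 for AMPH. No receptor gene was called after EIH (55 tested, 0% of all genes called higher) or after AMPH (52 tested, 0.0294%). At an unadjusted p under 0.05 there were 9 and 12 receptor genes, against 1265 and 1724 of all genes.

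Tnfrsf12a was back near its saline values. It read 9.04, 8.96, 8.82 and 8.87 after EIH and 9.28, 8.38, 8.96 and 9.84 after AMPH, against 8.86, 8.99, 8.79 and 8.60 after saline, so both groups overlapped it. Cxcr4 was separate from saline, at 7.20, 7.03, 7.20 and 7.53 after EIH and 7.40, 7.68, 7.35 and 7.59 after AMPH (0.86 ± 0.27, adjusted p = 0.294, and 1.12 ± 0.27, adjusted p = 0.125). Its lowest EIH pool lay just above the highest saline pool (6.93). The array medians over all genes were 7.37 to 7.38 for saline and 7.58 to 7.61 for EIH. Tnfrsf1b read 8.14, 7.51, 7.42 and 7.61 after EIH and 8.15, 9.29, 7.44 and 7.47 after AMPH, above every saline pool (0.88 ± 0.32 and 1.30 ± 0.32). Il1rn read 7.86, 7.32, 7.32 and 7.44 after EIH and 7.57, 9.33, 7.66 and 8.02 after AMPH, against 6.87, 6.81, 6.93 and 5.73 after saline (0.90 ± 0.38, adjusted p = 0.362, and 1.56 ± 0.38, adjusted p = 0.125). For these 3 genes both exposed groups lay above saline, without a call. Il1r2 had the largest difference after AMPH (2.67 ± 0.68, adjusted p = 0.125), with 1 AMPH pool inside the saline range, and 0.27 ± 0.68 after EIH. Ccrl2, an atypical receptor that binds chemerin, read 7.33, 6.90, 6.97 and 6.95 after EIH and 6.51, 6.51, 6.55 and 5.59 after saline (0.74 ± 0.27). Il27ra, the interleukin-27 receptor, read 6.17, 6.28, 6.82 and 6.63 after EIH and 5.63, 6.12, 6.08 and 5.88 after saline (0.55 ± 0.22). Both had separate groups after EIH, Il27ra by a narrow gap, and neither was called.

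Between the 2 exposures at 1 day, Il1r2 had the largest difference and was not called. It read 7.59, 8.30, 5.70 and 7.55 after AMPH and 4.41, 6.08, 5.00 and 4.10 after EIH, a difference of 2.39 ± 0.68 (unadjusted p = 0.00256 in limma, adjusted p = 0.756). The groups overlapped by 1 AMPH pool. Il1rn overlapped as well. No receptor gene was called between AMPH and EIH at 1 day, of 52 tested (0% of all genes). Tnfrsf1a followed and was not called, at 11.35, 11.59, 10.57 and 10.63 after AMPH and 10.66, 10.41, 10.64 and 10.59 after EIH (0.46 ± 0.21), a difference carried by 2 AMPH pools. Tnfrsf8, the CD30 receptor, read 5.14, 3.99, 4.29 and 5.12 after AMPH and 5.67, 5.42 and 6.25 with 1 blank after EIH (-1.15 ± 0.52). Il22ra2 read 5.64, 7.18, 6.64 and 5.65 after AMPH and 5.14, 5.53, 5.24 and 5.39 after EIH (0.95 ± 0.52). Both were separate between the groups, and neither was called. In the AMPH group the summed neutrophil markers ran from 10.04 to 12.58 and the platelet markers from 9.72 to 13.79, against 9.58 to 9.97 and 10.01 to 11.06 after EIH. The choroid plexus epithelium markers, with none called, lay above 0 in 1 of 15 for AMPH against EIH (median -0.73) and in 0 of 15 for AMPH against saline (median -0.66). Their summed level was 17.49 to 18.53 after AMPH, with pool 2 the lowest and a median of 18.50, 18.47 to 18.54 after EIH and 18.50 to 18.55 after saline. Stroma markers lay above 0 against saline in 9 of 9 after AMPH (median 0.83) and in 8 of 9 after EIH (median 0.87). In pool 2 of the AMPH group the summed neutrophil, platelet, stroma, erythroid, and monocyte and macrophage markers were the highest of that group. Pool 1 of the EIH group was the highest of its group for stroma (16.4, median 13.9) and erythroid markers (12.8, median 11.7). It also read high for Il13ra2 (9.03, others 7.20 to 7.37) and Il17re (8.90, others 7.56 to 8.15). The part of these lists in the receptor values was not tested.

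In blood, both exposures moved receptor genes at 3 h. The interleukin-1 antagonist and co-receptor, both TNF receptors and the interleukin-13 receptor subunit were higher, and several lymphocyte receptors were lower. Tnfrsf4, a receptor of activated T cells, went the other way without a call. It read 8.93, 8.94, 9.29 and 9.56 after EIH and 8.91, 9.89, 8.71 and 10.40 after AMPH. Its saline rats read 7.91, 8.32, 8.07 and 7.92, below all exposed rats. After EIH 7 of 53 tested genes were called higher and 5 lower, and after AMPH 6 of 52 were called higher and 3 lower. Over all genes, 12.6% were called after EIH (5.63% higher and 7% lower) and 8.68% after AMPH (5.08% higher and 3.6% lower). The median difference of the receptor genes was 0.35 after EIH and 0.34 after AMPH, against 0.08 and 0.01 over all genes. By family, 4 interleukin receptor genes were higher and 1 lower after EIH, 1 chemokine receptor gene was higher and 3 lower, and 2 TNF receptor genes were higher and 1 lower. Both exposures share the 4 saline rats.

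Il1rn had the smallest adjusted p among receptor genes after EIH and after AMPH. It read 13.26, 13.69, 14.31 and 14.05 after EIH, 13.71, 13.94, 13.70 and 13.93 after AMPH, and 11.36, 11.72, 12.24 and 11.82 after saline. Every exposed rat lay more than 1 log2 unit above every saline rat. The differences were 2.04 ± 0.25 after EIH (4.12-fold) and 2.04 ± 0.25 after AMPH (4.10-fold), and the dimmer probe gave 2.25 and 1.83. Il1rap read 9.62, 9.76, 10.92 and 11.34 after EIH, 9.69, 10.35, 10.36 and 11.26 after AMPH, and 7.62, 8.42, 8.56 and 8.31 after saline. It was higher by 2.18 ± 0.49 after EIH (adjusted p = 0.00487) and 2.19 ± 0.49 after AMPH (adjusted p = 0.00915), with no overlap.

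Il1r2 was not called. It read 13.11, 13.56, 14.01 and 14.20 after EIH and 10.10, 11.47, 11.56 and 10.53 after saline, without overlap (2.80 ± 1.18, adjusted p = 0.132), the largest difference of the receptor genes after EIH. After AMPH it read 13.35, 8.75, 12.84 and 13.98, so that 1 rat lay below all saline rats while the other 3 lay above them (1.31 ± 1.17, adjusted p = 0.574). With only the EIH and saline groups of 3 h in the fit the EIH difference was called, at an adjusted p of 0.00769. The spread of Il1r2 in other blood groups, such as 10.88, 10.26, 15.04 and 7.29 in AMPH rats at 1 day, entered the standard error.

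Both TNF receptors were higher. Tnfrsf1a read 11.97, 12.17, 12.59 and 12.51 after EIH, 12.13, 12.41, 12.06 and 11.91 after AMPH, and 10.50, 10.81, 10.94 and 10.40 after saline (1.64 ± 0.22 and 1.46 ± 0.22). Tnfrsf1b read 11.28, 11.64, 12.25 and 12.08 after EIH, 12.23, 12.15, 11.71 and 12.22 after AMPH, and 10.72, 10.88, 10.93 and 10.36 after saline (1.09 ± 0.22 and 1.36 ± 0.22). No exposed rat overlapped the saline rats for either gene. Il13ra1, which pairs with the interleukin-4 receptor chain to bind interleukin-4 and interleukin-13, read 7.87, 8.26, 8.40 and 8.10 after EIH, 7.98, 8.20, 8.00 and 8.05 after AMPH, and 6.11, 6.57, 6.89 and 6.23 after saline. It was higher by 1.71 ± 0.27 and 1.61 ± 0.27, and its 8 exposed rats lay between 7.87 and 8.40, clear of saline.

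**Figure D3:**
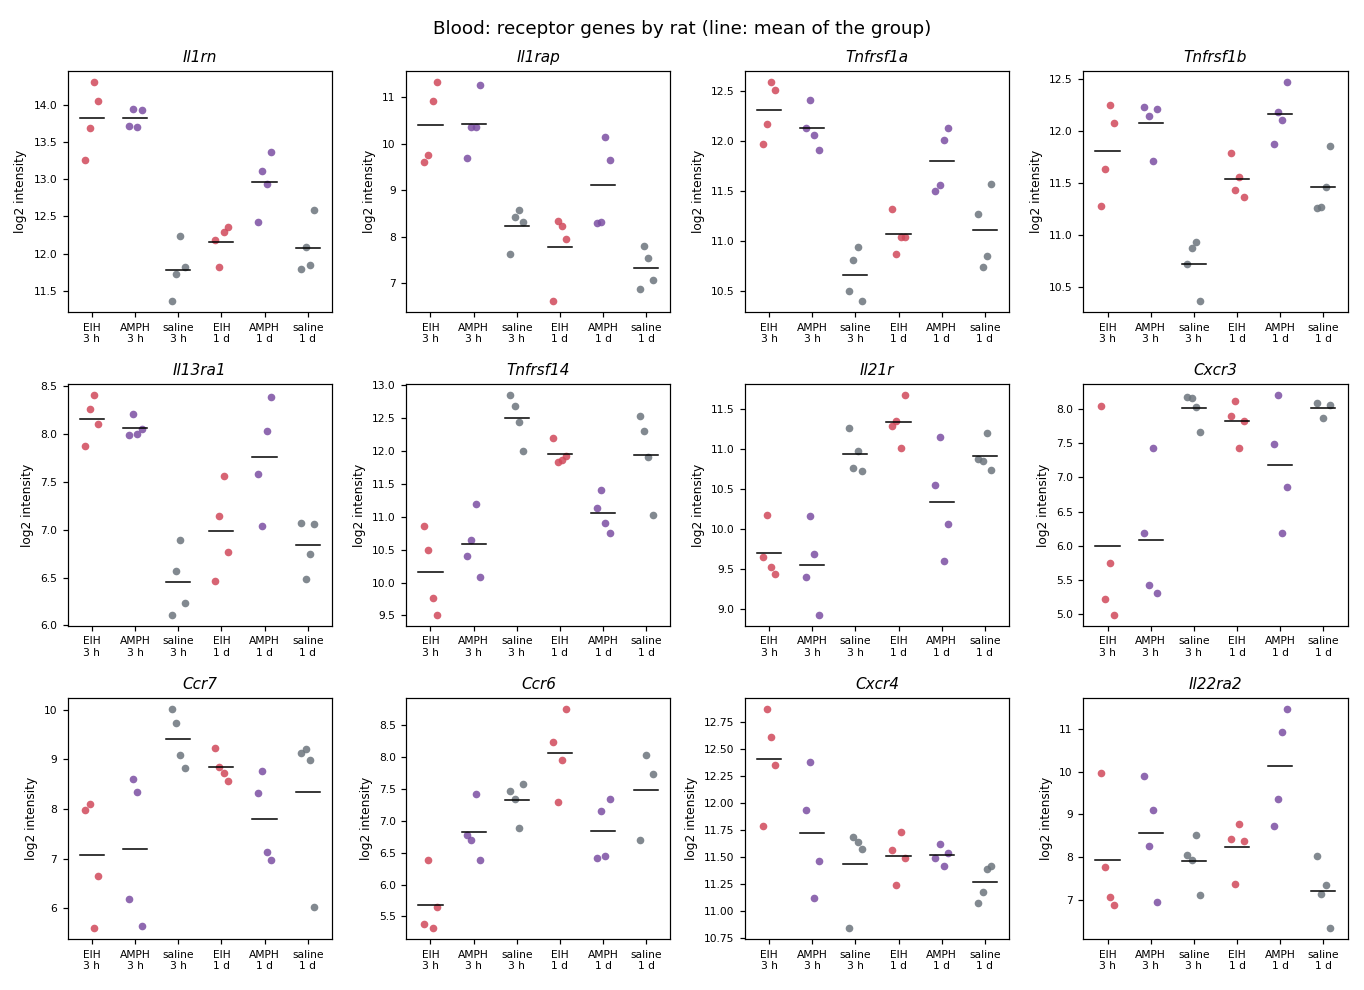
Log2 intensity in each blood sample (points, 1 rat each) with the group mean (line) for 12 receptor genes, by exposure and time. For Il1rn all exposed rats of 3 h lie at 13.26 to 14.31 and the saline rats of 3 h at 11.36 to 12.24, while at 1 day the EIH rats lie at 11.82 to 12.35 and the saline rats at 11.79 to 12.59.

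Il10ra, the ligand-binding chain for interleukin-10, was called after EIH, at 7.48, 8.35, 8.65 and 8.10 against 6.93, 7.43, 6.73 and 6.80 after saline (1.17 ± 0.32, adjusted p = 0.0207). The lowest EIH rat lay just above the highest saline rat. Cxcr4 was called after EIH as well, at 11.79, 12.87, 12.60 and 12.35 against 10.84, 11.68, 11.63 and 11.57 after saline (0.97 ± 0.26, adjusted p = 0.0166). After AMPH it read 11.94, 12.37, 11.12 and 11.46, overlapping saline (0.29 ± 0.26), and the difference between the exposures was not called (-0.68 ± 0.26, adjusted p = 0.399). Each of these 2 EIH calls ended when single rats were left out, with an adjusted p of up to 0.0714 for Il10ra (without EIH rat 3) and 0.0730 for Cxcr4 (without saline rat 1). After AMPH Il10ra read 6.52, 8.11, 7.79 and 7.48, overlapping saline.

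Il1rapl2 was called after AMPH on few values. It read 6.66, 6.34 and 6.19 with 1 blank after AMPH and 3.17 and 4.46 with 2 blanks after saline (2.59 ± 0.55, adjusted p = 0.0261), and leaving out AMPH rat 1 or 2 ended the call. The EIH rats read 3.23, 4.43 and 4.70 with 1 blank, inside and just above the saline values.

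The clearest fall was that of Tnfrsf14. It read 10.86, 10.50, 9.77 and 9.51 after EIH, 10.40, 10.64, 11.20 and 10.09 after AMPH, and 12.85, 12.69, 12.45 and 12.01 after saline. It was lower by 2.34 ± 0.33 after EIH (adjusted p = 0.000183) and 1.92 ± 0.33 after AMPH (adjusted p = 0.00216), its other probe gave -2.41 and -2.40, and no groups overlapped. Il21r, which receives the T cell cytokine interleukin-21, read 9.65, 10.17, 9.53 and 9.44 after EIH, 9.40, 10.16, 9.68 and 8.93 after AMPH, and 11.26, 10.76, 10.98 and 10.73 after saline (-1.24 ± 0.29 and -1.39 ± 0.29, both called). All 8 exposed rats lay below all saline rats.

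Cxcr3, the receptor of activated T cells for CXCL9 and CXCL10, read 8.04, 5.22, 5.74 and 4.99 after EIH, 6.19, 5.42, 7.43 and 5.31 after AMPH, and 8.17, 8.16, 8.03 and 7.67 after saline. It was lower by 2.01 ± 0.56 and 1.92 ± 0.56 (adjusted p = 0.0216 and 0.0361). EIH rat 1 stayed inside the saline range. The EIH call ended without saline rat 1 or EIH rat 2, 3 or 4 (adjusted p 0.0547 to 0.0809). It also ended with only the compared groups in the fit (0.0850). The AMPH call ended without any 1 of the saline rats, and without AMPH rat 1, 2 or 4 (adjusted p 0.0530 to 0.120). Ccr7 read 7.97, 8.09, 5.60 and 6.65 after EIH, 6.19, 8.60, 8.34 and 5.65 after AMPH, and 10.02, 9.74, 9.08 and 8.83 after saline. It was called after EIH (-2.34 ± 0.74, adjusted p = 0.0417) and not after AMPH (-2.22 ± 0.74, adjusted p = 0.0679). The EIH call of Ccr7 ended without saline rat 1, 2 or 3 and without EIH rat 3 or 4 (adjusted p 0.0642 to 0.139). It also ended with quantile normalization (0.0514). Both exposed groups lay below saline without overlap.

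Ccr6, the receptor for CCL20, was called after EIH, at 5.38, 6.38, 5.32 and 5.65 against 7.47, 7.35, 6.89 and 7.58 after saline (-1.64 ± 0.36, adjusted p = 0.00430). After AMPH it read 6.78, 6.70, 7.43 and 6.39, all above the EIH rats, but the difference between the exposures was not called (1.14 ± 0.36, adjusted p = 0.259). Il2rb read 7.98, 8.67, 8.52 and 6.89 after AMPH and 9.49, 10.08, 9.96 and 9.42 after saline, without overlap, and just missed the threshold (-1.72 ± 0.54, adjusted p = 0.0515). After EIH it overlapped saline, at 10.21, 10.16, 9.07 and 7.76. Il4r read 9.30, 9.46, 10.07 and 9.78 after EIH and 10.03, 9.87, 9.12 and 9.15 after saline, interleaved and not called (0.11 ± 0.36, and -0.19 ± 0.36 after AMPH). Il6r read 11.10, 11.03, 11.61 and 11.47 after EIH, 11.14, 11.06, 11.50 and 10.94 after AMPH, and 10.81, 10.92, 11.03 and 10.80 after saline (0.41 ± 0.21 and 0.27 ± 0.21, neither called). Il2rg (0.11 ± 0.65 and 0.49 ± 0.65), Il18rap (0.23 ± 0.79 and -0.10 ± 0.79), Il7r (-0.24 ± 0.95 and -0.65 ± 0.87) and Il1rl1 (-0.39 ± 0.76 and 0.76 ± 0.82) were not called after EIH or AMPH, and their standard errors leave room for differences of a log2 unit. Tnfrsf11b had 2 blanks after EIH and 3 after AMPH, and was tested only after EIH (-1.68 ± 0.87, not called). Between AMPH and EIH at 3 h no receptor gene was called of 53 tested, against 0.0397% of all genes (0.0298% higher and 0.00993% lower), with Il1rapl2 (2.28 ± 0.50, adjusted p = 0.179) the first by unadjusted p.

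Leukocyte markers moved with these genes. Of 13 tested T cell markers 11 were called lower after EIH and 9 after AMPH, and their summed level was 12.8 to 14.3 after EIH, 13.1 to 14.4 after AMPH and 15.0 to 15.4 after saline. Of 7 B cell markers 3 and 2 were called lower. Of 12 neutrophil markers 6 were called higher after each exposure, and their summed level was 15.6 to 16.6 after EIH, 16.2 to 16.9 after AMPH and 14.5 to 15.2 after saline. The part of these shifts in the receptor differences was not tested.

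Ligand and signalling genes of the same pathways were also measured in blood at 3 h. Of 54 ligand genes tested after EIH, 4 were called higher (Cxcl2 by 5.96 ± 1.20, Ccl2 by 3.61 ± 0.70, Osm by 2.03 ± 0.46 and Il1b by 1.65 ± 0.26) and 3 lower (Ccl20, Cxcl10 and Mif). Cxcl2 draws neutrophils, Ccl2 is the ligand of Ccr2, and Il1b is the cytokine that Il1rn opposes. Of 53 tested after AMPH, 6 were called higher, among them Cxcl2, Ccl2, Osm and Il1b again and Tnfsf12, the ligand of Tnfrsf12a (1.56 ± 0.45), and 1 lower (Ccl4). Of 66 signalling genes 12 were called higher and 5 lower after EIH, and 8 and 2 after AMPH. Stat3, a transcription factor downstream of many cytokine receptors, was higher by 1.93 ± 0.29 after EIH and 1.65 ± 0.29 after AMPH, and Sigirr, an inhibitory member of the interleukin-1 receptor family, was lower by 2.80 ± 0.34 and 1.70 ± 0.34. Socs3, a feedback inhibitor, was called after EIH (2.24 ± 0.61).

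At 1 day after EIH the differences of the blood receptor genes from saline ran from -1.60 to 1.45, with a median of 0.08. None of 53 tested was called (0.082% of all genes were called, 0.0512% higher and 0.0307% lower), and 2 had an unadjusted p under 0.05, Ccr4 (-1.60 ± 0.72) and Ccr2 (1.22 ± 0.56), against 1008 of all genes. Il1rn read 12.18, 11.82, 12.29 and 12.35 after EIH and 11.79, 12.10, 11.85 and 12.59 after saline, and Tnfrsf1a read 11.32, 10.87, 11.04 and 11.04 after EIH and 11.27, 10.75, 10.85 and 11.57 after saline. Both interleaved with saline. Ccr4, a receptor of T helper cells, read 3.41, 6.59, 4.44 and 4.39 after EIH and 6.40, 6.32, 6.97 and 5.54 after saline. Ccr2 read 8.20, 7.67, 8.63 and 8.64 after EIH and 8.01, 7.83, 6.89 and 5.54 after saline. The EIH and saline rats overlapped for both genes. Next were Ccr10, at 7.74, 7.46, 7.07 and 7.61 after EIH and 7.65, 7.07, 6.97 and 5.06 after saline (0.78 ± 0.46), and Tnfrsf4, the OX40 receptor of activated T cells, at 8.67, 8.41, 8.49 and 8.33 after EIH and 8.47, 9.73, 9.01 and 9.60 after saline (-0.73 ± 0.46). Neither was called, and both overlapped.

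After AMPH at 1 day 1 gene of 51 tested was called, against 2.08% of all genes called, 1.64% higher and 0.439% lower. Il22ra2, the soluble binding protein that neutralises interleukin-22, read 8.74, 9.36, 10.92 and 11.46 after AMPH and 8.03, 7.14, 7.36 and 6.36 after saline. The difference was 2.90 ± 0.70 (adjusted p = 0.0355) with no overlap, but the dimmer probe gave 0.81. The call ended without saline rat 2, 3 or 4 or AMPH rat 3 or 4 (adjusted p 0.0584 to 0.139). Genes called at 3 h missed the threshold at 1 day. Il1rap read 8.29, 8.32, 10.14 and 9.66 after AMPH and 6.87, 7.79, 7.53 and 7.06 after saline (1.79 ± 0.49, adjusted p = 0.0583). Il1rn read 12.43, 13.11, 12.94 and 13.36 after AMPH and 11.79, 12.10, 11.85 and 12.59 after saline (0.88 ± 0.25, adjusted p = 0.0680). Il13ra1 differed by 0.92 ± 0.27 (adjusted p = 0.0730) and Tnfrsf1b by 0.70 ± 0.22 (adjusted p = 0.0956). Of these Il1rap and Tnfrsf1b had separate groups. Of 66 signalling genes 4 were called higher, the colony-stimulating factor receptor genes Csf2rb (2.69 ± 0.53), Csf3r (1.89 ± 0.33) and Csf1r (1.16 ± 0.27) and the G protein gene Gnai2 (1.11 ± 0.19), and of 57 ligand genes none was called. All 9 tested monocyte and macrophage markers lay above 0, with 2 called, and their summed level was 15.7 to 16.2 after AMPH and 14.9 to 15.4 after saline. Of 12 neutrophil markers 10 lay above 0, with 1 called, and of 14 T cell markers 2 lay above 0, with none called. The part of these shifts in the receptor differences was not tested. Settings, single rats left out included, moved the number of receptor calls between 0 and 5 and that of all called genes between 0 and 404.

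Between AMPH and EIH at 1 day no receptor gene was called (52 tested, 0% of all genes), though 13 had an unadjusted p under 0.05, against 1162 of all genes. Tnfrsf1a read 11.50, 11.56, 12.01 and 12.13 after AMPH and 11.32, 10.87, 11.04 and 11.04 after EIH, a difference of 0.73 ± 0.22 (adjusted p = 0.181) without overlap. Il17ra was separate as well, at 11.75, 11.55, 11.95 and 11.84 after AMPH and 10.84, 11.40, 10.98 and 10.64 after EIH (0.81 ± 0.23, adjusted p = 0.178). Ccr6 read 6.41, 7.16, 6.45 and 7.35 after AMPH and 8.24, 7.30, 7.96 and 8.76 after EIH (-1.22 ± 0.36), and Il21r read 10.55, 11.14, 9.60 and 10.06 after AMPH and 11.29, 11.35, 11.01 and 11.67 after EIH (-0.99 ± 0.29). Each overlapped by a single AMPH rat. Tnfrsf8 came first by unadjusted p on 3 values a group, at 6.89, 6.05 and 5.77 after AMPH and 3.60, 5.64 and 3.45 after EIH (2.01 ± 0.53). At 1 day the summed neutrophil markers in blood were 14.86 to 16.22 after AMPH, 13.97 to 14.53 after EIH and 13.32 to 14.94 after saline. The summed T cell markers were 13.76 to 14.69 after AMPH, 15.04 to 15.42 after EIH and 15.10 to 15.50 after saline, without overlap between AMPH and the other groups. For AMPH against EIH, 1 of 14 T cell markers, 0 of 7 B cell markers (median -0.96), 11 of 11 neutrophil markers and 9 of 9 monocyte and macrophage markers lay above 0, with none called. The part of these lists in the receptor values was not tested.

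**Figure D4:**
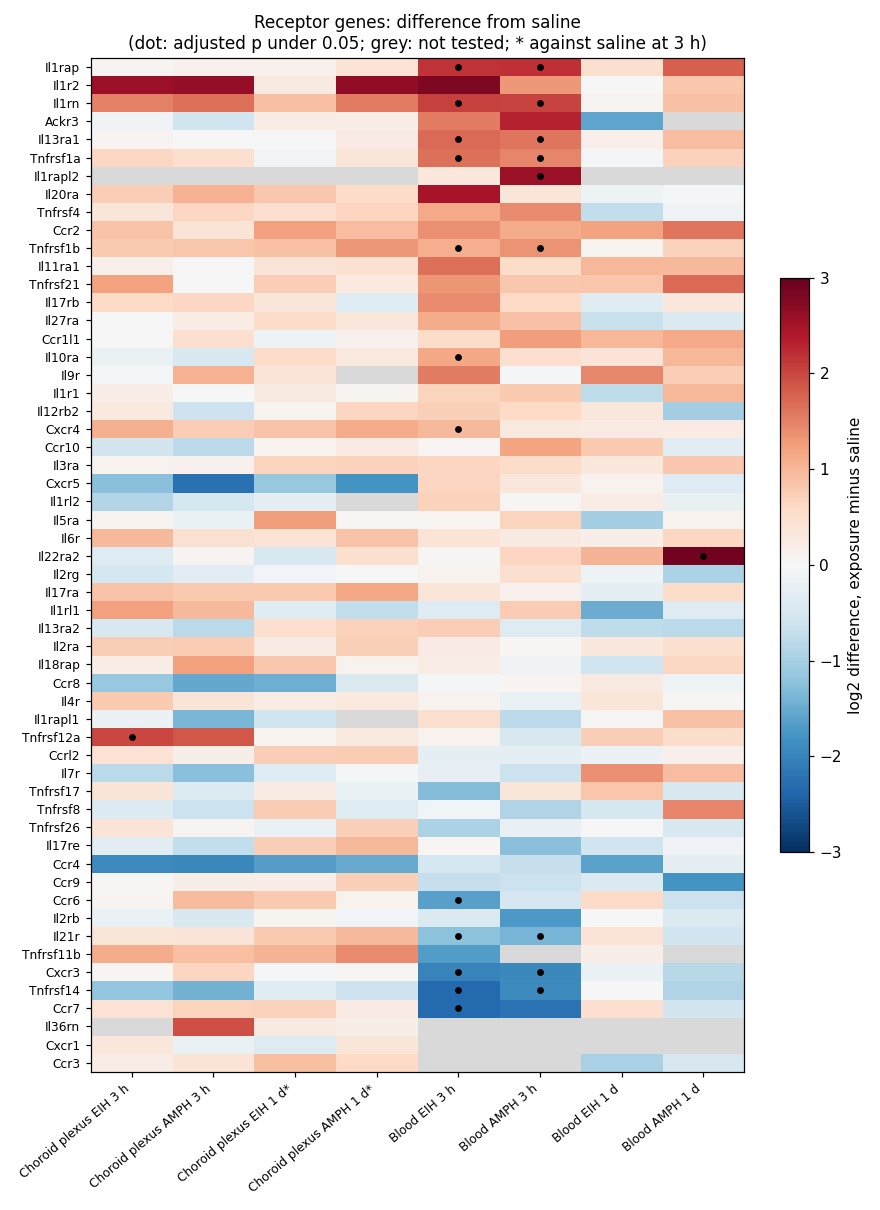
Log2 difference from saline (colour, limited to 3 either way) for each receptor gene (rows) in 8 comparisons (columns), with a dot for called genes and grey for genes not tested; choroid plexus of 1 day is set against saline of 3 h. The dots lie mostly in the blood columns of 3 h (12 after EIH, 9 after AMPH), with 1 in choroid plexus, Tnfrsf12a, and 1 in blood AMPH 1 day, Il22ra2.

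Whether a receptor gene responded differently in the 2 tissues was tested at 3 h as the choroid plexus change minus the blood change. For EIH 5 of 52 genes were called, 1 higher and 4 lower, and for AMPH 4 of 51, 1 higher and 3 lower, against 6.13% of all genes called for EIH (3.85% higher and 2.28% lower) and 3.15% for AMPH (1.51% higher and 1.63% lower). Il1rap and Il13ra1 were called in both. Il1rap was higher after EIH in blood, as given above, while choroid plexus read 9.48, 9.30, 9.44 and 9.44 after EIH and 9.43, 9.39, 9.35 and 9.15 after saline (-2.09 ± 0.54 for EIH, adjusted p = 0.0147, and -2.07 ± 0.54 for AMPH, adjusted p = 0.0272). Il13ra1 read 6.44, 6.38, 5.96 and 5.82 in choroid plexus after EIH and 6.12, 6.56, 5.86 and 5.71 after saline (-1.62 ± 0.40 and -1.60 ± 0.40, adjusted p = 0.0112 and 0.0215). Both genes interleaved in choroid plexus.

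Il21r was lower in exposed blood, as given above, while choroid plexus read 6.32, 6.59, 6.24 and 5.87 after EIH and 6.12, 5.71, 6.27 and 5.44 after saline (1.60 ± 0.46 and 1.77 ± 0.46, adjusted p = 0.0312 and 0.0276). Tnfrsf1a had the larger rise in blood after EIH (-1.02 ± 0.30, adjusted p = 0.0333). Cxcr5 read 4.52, 3.60 and 4.09 with 1 blank in choroid plexus after EIH, mostly below its saline values of 4.20 to 6.83, while blood read 8.93, 8.68, 8.34 and 8.01 after EIH and 8.27, 8.44, 7.98 and 6.68 after saline (-1.89 ± 0.58 for EIH, adjusted p = 0.0454, and -2.57 ± 0.58 for AMPH, adjusted p = 0.0124). Of the 9 calls only that of Il13ra1 after EIH held under every alternative run. Tnfrsf12a, the one gene called in choroid plexus, was not called in this test (1.89 ± 1.02 for EIH and 2.33 ± 1.02 for AMPH). Pools of 3 rats and blood of single rats share a spread in this fit. The Tnfrsf12a blood values, from 3.17 to 7.71, entered its standard error. Its 2 probes parted in blood, with changes of 0.11 and, by the other probe, 1.65 after EIH, and -0.48 and 0.50 after AMPH. In choroid plexus that other probe gave 1.79 after EIH and 1.745 after AMPH.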

How the data were processed

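Agilent arrays with Cy3 only were hybridised with RNA from choroid plexus and trunk blood, per the labels' protocols. The values are the authors' deposited intensities on a linear scale, 14055 probes by 44 arrays. How they were background-corrected and normalized is not given in the sources used here. Array medians were 139 to 146 for arrays of 3 h and 165 to 171 for arrays of 1 day.

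Log2 was taken and blanks stayed missing. Testing a gene needed 2 or more values in both compared groups. limma 3.58.1 (R 4.3.3) fitted a mean per group with empirical Bayes over the 20 choroid plexus or 24 blood arrays, over the 2 saline groups of 3 h for the tissues, and over all 44 arrays for differences between tissues. In both kinds of test between tissues, pools and single rats share a spread. P-values were adjusted over all genes of a comparison. The fits were tested on simulated data with 200 changed genes without blanks and noise drawn independently for each gene. Of 2-fold changes, 23% (difference between tissues in the EIH change) to 40% (choroid plexus EIH 3 h) were called. Of 4-fold changes, 63% to 89% were called in the same comparisons. Arrays have no read depth, and their number (4 a group) limits the precision. The labels number the rats but do not say how samples were prepared, so p-values measure the spread between these samples. No 2 arrays were duplicates (highest correlation 0.978).

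The genes, lists and tests were chosen with earlier results of these data known. Named genes are, between tissues, the 10 largest called rises and falls without overlap, elsewhere up to 8 called genes a direction or else the 4 smallest p, plus a fixed set, as far as its genes were analysed here. 2 genes matching the symbol rule are not reported here. Alternatives were quantile normalization, the same 75th percentile, a filter on low genes, an intensity trend, array weights, the mean over probes, complete genes, compared groups only, pools without recurring rats, each array left out and a shared-rat block. Leaving out pool 2 of choroid plexus AMPH 1 day from other comparisons was added after seeing the data.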

Additional observations from a re-analysis of the deposited data

Results flagged for a closer look

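Among 20 receptor genes of the fixed set, 196 groups of 4 arrays were examined for 1 value far from the other 3, and 19 had one. Chance gives such a value in about 1 in 20 groups, and genes read on the same arrays are not independent. Pool 4 of choroid plexus AMPH 3 h was low for Tnfrsf12a (9.16, others 11.04 to 11.31), Cxcr4 (6.60, others 7.26 to 7.33), Il6r (6.82, others 7.41 to 7.51) and Tnfrsf1a (10.83, others 11.23 to 11.32). Pool 4 of choroid plexus saline was low for Il1rn (5.73, others 6.81 to 6.93) and Tnfrsf1b (6.24, others 6.93 to 7.06), and pool 1 was high for Il2rb (5.88, others 5.17 to 5.21). In choroid plexus of 1 day, Il1r1 was low in EIH pool 1 (5.92, others 6.39 to 6.47), Il1rap was high in EIH pool 4 (9.65, others 9.39 to 9.43) and Il10ra was low in AMPH pool 3 (3.14, others 5.20 to 5.59).

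In blood, rat 4 of saline 1 day was low for Il2rb (8.17, others 9.70 to 9.87), Il4r (7.90, others 9.48 to 9.76), Ccr7 (6.03, others 8.99 to 9.21) and Tnfrsf12a (3.81, others 5.20 to 5.42), and rat 3 for Il1r2 (9.26, others 10.27 to 10.41). In saline of 3 h, Cxcr4 was low in rat 1 (10.84, others 11.57 to 11.68) and Tnfrsf12a in rat 4 (3.25, others 6.20 to 6.56). Tnfrsf1b was low in AMPH 3 h rat 3 (11.71, others 12.15 to 12.23), and Ccr2 in AMPH 1 day rat 3 (7.92, others 8.82 to 8.97).

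The choroid plexus change minus the blood change differed from 0 in limma's interaction test after EIH for Cxcr5 (-1.89), Il13ra1 (-1.62), Il1rap (-2.09), Il21r (1.60) and Tnfrsf1a (-1.02), and after AMPH for Cxcr5 (-2.57), Il13ra1 (-1.60), Il1rap (-2.07) and Il21r (1.77).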

How the results depend on the processing

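Over 115 gene results and 1984 alternatives, 1823 kept direction and side of the threshold, 105 lost a call, 55 gained one and 1 turned round: Il1rn in choroid plexus EIH 3 h was -0.38 with the mean over its probes, whose dimmer probe went down. Called receptor genes in choroid plexus EIH 3 h (1 as reported) numbered 9 with array weights and 0 with the mean over probes or without pools holding a recurring rat. Over all genes the calls were 35 as reported, 1110 with array weights, 30 with the mean over probes and 0 without those pools. In choroid plexus AMPH 3 h (0 as reported) called receptor genes numbered 1 without low genes, 2 with an intensity trend and 10 with array weights. All called genes there numbered 16 as reported, and 44, 59 and 1354 in these settings. Choroid plexus AMPH against EIH at 1 day (0 as reported) gave 1 receptor gene without recurring rats, where 184 of all genes were called (0 as reported). Blood AMPH 1 day (1 as reported) gave 2 with quantile normalization or the mean over probes, 3 without low genes, 5 with an intensity trend, 4 with complete genes, and 0 with array weights or the compared groups only. All called genes there numbered 204 as reported, and in the same order 270, 174, 361, 379, 401, 135 and 0. The tissue difference in the change gave, without recurring rats, 1 after EIH (5 as reported) and 0 after AMPH (4 as reported), and 8 after AMPH with array weights. All called genes there numbered 298 (602 as reported), 130 (308 as reported) and 1213. The causes were not tested, beyond the fewer arrays or genes in some settings.

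Leaving out 1 array gave 30 to 33 calls between tissues, 0 to 2 in choroid plexus EIH 3 h, 0 to 6 in choroid plexus AMPH 3 h (3 without AMPH pool 4), 8 to 14 in blood EIH 3 h, 7 to 14 in blood AMPH 3 h (14 without AMPH rat 3), 0 to 3 in blood AMPH 1 day, and 2 to 6 (EIH) and 1 to 7 (AMPH) for the difference between tissues, where the lowest AMPH count came without blood saline rat 1 and the highest without blood AMPH rat 3. In the other comparisons it gave 0. Counts over all genes moved as well. Choroid plexus AMPH 3 h had 350 where 6 receptor genes were called and 290 where 3 were. Blood AMPH 3 h had 914 without AMPH rat 3. The AMPH difference between tissues had 173 at its lowest receptor count and 465 at its highest. The replicate numbers follow accession order and pair no samples, whereas the rat numbers in the labels link some arrays of both tissues. With arrays of a shared rat as a random replicate block (correlation 0.08315 between tissues, 0.1675 for the changes), 33 genes were called between tissues and 5 in each test of the change. Dim genes with blanks limit what could be resolved.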
